A study of Mus musculus with 12 samples.

Results

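Bulaquine is an antimalarial of the aminoquinoline class, and the measurements described here ask how the difference between drug-treated and vehicle-treated mouse liver changed from 6 h to 24 h after the drug. The comparison uses 8 of the 12 arrays of the study, the 4 of 6 h and the 4 of 24 h, chosen by the time in their labels. For each probe the log2 ratio of drug over vehicle at 6 h was subtracted from that at 24 h, so a positive difference means a higher ratio at 24 h. Of the 23040 spots, 13845 had a corrected intensity above 0 in both dyes on all 8 arrays and were tested.

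Each array carried labelled cDNA from the liver of a mouse given bulaquine in one dye and from a vehicle-treated mouse in the other. Arrays F1 and F2 had the drug sample in Cy5, arrays R1 and R2 had it in Cy3, and every ratio was turned to drug over vehicle. The remaining 4 arrays, of 12 h, entered the fit for its estimate of the spread and took no part in the difference. Both groups of each time point were mice of a strain, sex and age that the sources used here do not give, and neither do they give the dose, the time at which vehicle mice were killed, whether F1 and R1 share RNA, or whether vehicle mice were shared between times. What the p-values measure is array-to-array spread, possibly technical in origin, and whatever differed between the hybridizations of the time points cannot be told apart from time.

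Metallothioneins are small cysteine-rich proteins that bind zinc and copper, and liver raises them through the metal-responsive factor MTF1 and after glucocorticoids or stress. Interferon-inducible GTPases, such as the guanylate-binding proteins and Igtp, act in cell-autonomous defence and are switched on through STAT and IRF factors. Glutathione transferases join glutathione to reactive compounds and are abundant in hepatocytes.

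Of 6 hepatocyte markers, albumin (Alb), apolipoprotein A-I (Apoa1) and transthyretin (Ttr) gave signal in both dyes on all 8 arrays, and the other 3 were not among the tested probes. Brightness of different cDNA probes does not measure relative transcript level, so these values do not test the identity of the tissue. Signal was low over the slide as a whole, with a median signal-to-noise score per array of 0.71 to 1.15 on the 8 arrays. Turned ratios correlated at 0.12 to 0.26 between arrays of the same dye orientation and at -0.16 to -0.10 between arrays of opposite orientation, so a dye effect was fitted for every probe. All gene names depend on a block order worked out from these data, since the deposited spot numbers and the annotation's numbering differ.

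Of the tested probes, 0.123% were called, that is 17 with a Benjamini-Hochberg adjusted p under 0.05 from limma. The ratio was higher at 24 h for 13 probes (0.0939%) and lower for 4 (0.0289%). The called probes with 1 symbol were 11 and stood for 10 genes, and the other 6 had no symbol. The metallothionein genes Mt1 and Mt2 were lower at 24 h, with Ssr1 and Znrf2. Gbp5, Gstm2, Ccnd2, Arhgef12, Fam8a1 and 9930111J21Rik2 were higher. At an unadjusted p under 0.05 there were 1221 probes, 674 higher and 547 lower, where 692.25 would fall there by chance. The number of calls depended on the arrays: a fit of the 8 arrays alone called 0 probes, with 1222 at an unadjusted p under 0.05. Leaving out 1 array called between 0 and 20.

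**Figure D1:**
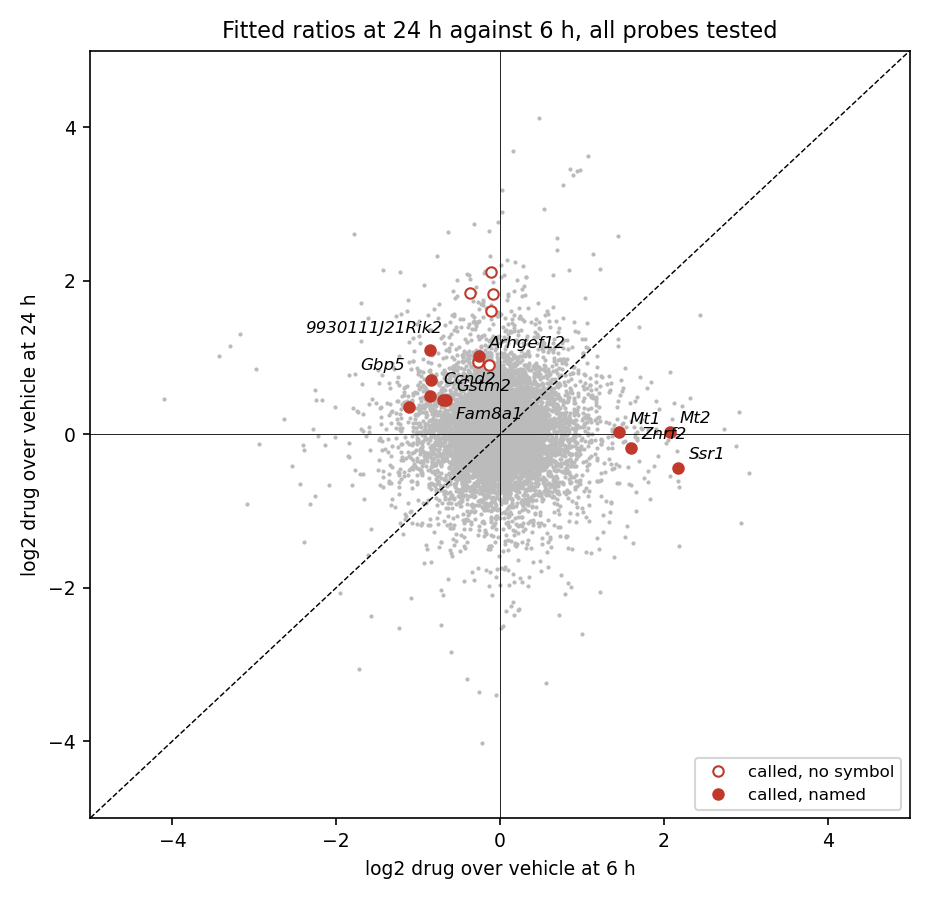
Fitted log2 ratio of drug over vehicle at 6 h (horizontal axis) and at 24 h (vertical axis) for the 13845 tested probes (grey), with called probes in red, filled where they have a gene symbol, and the dashed line where both ratios are equal. Mt1, Mt2, Znrf2 and Ssr1 stand right of 0 at 6 h and near 0 at 24 h, and the named genes with a positive difference stand left of 0 at 6 h and above 0 at 24 h.

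Promoter windows are shown for 4 genes picked for their gene families. Mt1, Mt2 and Gbp5 were called, and Igtp is an interferon-inducible gene whose groups did not overlap. These windows do not stand for those of all called genes. Each has 300 bases (build GRCm38.p6), 5′ to 3′ on the strand of the gene, and capitals mark matches on either strand. For Mt2 and Gbp5 most of the window lies before the start of the gene in RefSeq. The Mt1 gene starts there at 94178883, so most of its window, with all marked matches, lies after that start. For Mt1 (chr8:94178839-94179138, plus strand) and Mt2 (chr8:94172368-94172667, plus strand) the capitals are the core of the metal response element, TGCACNC or TGCGCNC. For Gbp5 (chr3:142496684-142496983, plus strand) and Igtp (chr11:58199306-58199605, plus strand) they are a core of the interferon-stimulated response element, GAAA repeated after any 2 bases.
Mt1: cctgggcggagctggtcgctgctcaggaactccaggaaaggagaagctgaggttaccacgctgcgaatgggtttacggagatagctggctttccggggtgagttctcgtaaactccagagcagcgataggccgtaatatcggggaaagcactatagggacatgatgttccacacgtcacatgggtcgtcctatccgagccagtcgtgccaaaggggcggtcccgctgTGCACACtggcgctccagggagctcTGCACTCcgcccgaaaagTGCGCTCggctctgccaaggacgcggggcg
Mt2: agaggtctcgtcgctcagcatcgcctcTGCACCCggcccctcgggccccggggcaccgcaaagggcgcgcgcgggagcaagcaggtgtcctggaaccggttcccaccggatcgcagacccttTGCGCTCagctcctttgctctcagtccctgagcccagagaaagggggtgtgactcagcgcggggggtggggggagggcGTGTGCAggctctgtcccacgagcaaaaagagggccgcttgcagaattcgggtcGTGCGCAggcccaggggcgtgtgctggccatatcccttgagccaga
Gbp5: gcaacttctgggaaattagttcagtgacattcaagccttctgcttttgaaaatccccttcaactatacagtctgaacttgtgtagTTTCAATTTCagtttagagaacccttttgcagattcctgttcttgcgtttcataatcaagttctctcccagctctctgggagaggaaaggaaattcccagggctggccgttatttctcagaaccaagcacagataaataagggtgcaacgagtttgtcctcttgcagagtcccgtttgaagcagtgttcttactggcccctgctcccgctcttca
Igtp: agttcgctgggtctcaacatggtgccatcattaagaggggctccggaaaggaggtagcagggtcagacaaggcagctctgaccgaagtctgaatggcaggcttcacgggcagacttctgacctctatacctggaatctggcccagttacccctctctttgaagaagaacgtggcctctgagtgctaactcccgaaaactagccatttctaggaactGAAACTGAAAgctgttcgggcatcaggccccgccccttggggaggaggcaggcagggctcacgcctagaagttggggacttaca
The Mt1 window held 3 matches and the Mt2 window 4, and such a match was present in 25.6% of the windows of 27025 genes. The Gbp5 and Igtp windows held 1 match each to the interferon element, which 3.49% of genes had. The Gbp5 window also held 1 match to the metal response element, not marked above. Of the other called genes with a window, Arhgef12 and Znrf2 held 1 metal response match each and no interferon match. The windows of 9930111J21Rik2, Fam8a1, Gstm2 and Ssr1 held no match to either element. Of the 27 measured genes of the interferon and antigen lists described below, 23 had a window, and 12 of these held it. A match describes letters in the window and does not show that a factor binds there.

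Mt2 had the lowest adjusted p of the named genes. Its log2 ratios of drug over vehicle on F1, F2, R1 and R2 were 1.98, 1.91, 2.20 and 2.19 at 6 h and 0.02, -0.01, 0.51 and -0.39 at 24 h. All 4 arrays of 24 h lay below all 4 of 6 h, in both dye orientations. The difference was -2.04 (SE 0.21, n = 4 arrays a time point, limma adjusted p = 0.0245), a ratio 4.10-fold lower at 24 h. The other tested Mt2 probe was at 1.17, 1.12, 1.26 and 0.76 at 6 h and at -0.28, -0.06, 0.23 and 0.41 at 24 h. It also separated the time points, with a difference of -1.001 (SE 0.18) that missed the threshold (limma adjusted p = 0.121).

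Mt1 encodes the other main liver metallothionein and lies near Mt2 on chromosome 8. Its ratios were 1.97, 1.73, 0.77 and 1.35 at 6 h and 0.42, 0.28, -0.14 and -0.46 at 24 h. The groups did not overlap, and within each time point the F arrays lay above the R arrays. The difference was -1.43 (SE 0.17, limma adjusted p = 0.0360), a ratio 2.69-fold lower at 24 h. At 12 h the fitted ratios were intermediate, at 0.68 for Mt2 and 0.45 for Mt1. Because the probes are cDNAs of closely similar genes, cross-hybridization between Mt1 and Mt2 was not tested.

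**Figure D2:**
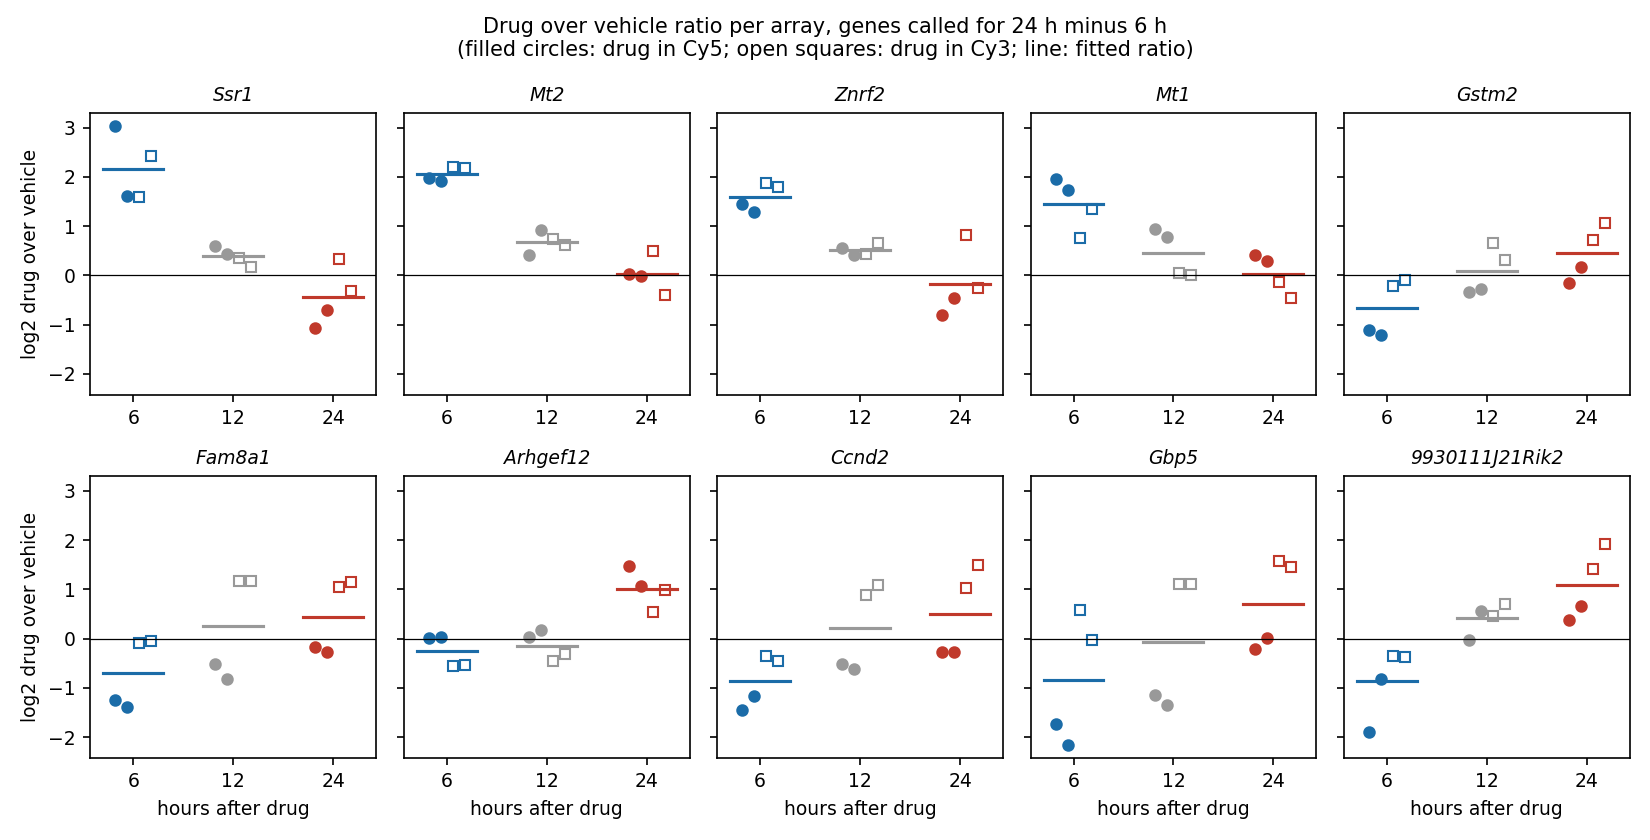
Log2 ratio of drug over vehicle on each array (vertical axis) by hours after the drug (horizontal axis) for the 10 named called genes, with filled circles for drug in Cy5, open squares for drug in Cy3 and a line at the fitted ratio. Mt2 falls from between 1.91 and 2.20 at 6 h to between -0.39 and 0.51 at 24 h. For Gbp5, Fam8a1, Gstm2, Ccnd2, Arhgef12 and Mt1 the arrays of the 2 dye orientations stand apart at each time.

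The list of metallothioneins and metal handling genes had 12 members, of which 5 were measured. Mt1 and Mt2 were called, and the zinc importers Slc39a4, Slc39a14 and Slc39a1 were not, at 1.07, 0.15 (over both probes) and 0.02. The list median was 0.02, beside 0.01 over all 6503 genes, and it was below 0 in 8 of 28 alternatives. Averaged over both of its probes, Mt2 stood at -1.52.

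Ssr1, a subunit of the translocon-associated protein complex of the endoplasmic reticulum, gave the largest difference of the named called genes. Its called probe was at 3.03, 1.62, 1.60 and 2.43 at 6 h and at -1.06, -0.69, 0.33 and -0.32 at 24 h, with no overlap. The difference was -2.61 (SE 0.38, limma adjusted p = 0.0466). The other 3 Ssr1 probes went elsewhere, at 0.92, 0.14 and -0.04. The probe at 0.92 also separated the time points, in the direction opposite to the called probe, and was not called (limma adjusted p = 0.335). The called Ssr1 probe and the called Mt2 probe stand at the same position, 45, of blocks 22 and 21, and a part of that in the result was not tested.

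Znrf2, a ubiquitin ligase of the zinc and RING finger type, was at 1.46, 1.28, 1.88 and 1.79 at 6 h and at -0.80, -0.46, 0.83 and -0.26 at 24 h. The groups did not overlap, and the difference was -1.77 (SE 0.26, limma adjusted p = 0.0466). Its other probes stood at -0.34 and -0.06, both uncalled.

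Gbp5, a guanylate-binding protein of the interferon response, was at -1.74, -2.16, 0.58 and -0.03 at 6 h and at -0.21, 0.01, 1.58 and 1.45 at 24 h. The raw ratios of the groups overlap because the R arrays lay above the F arrays at both times, and within each orientation 24 h was higher. The difference was 1.54 (SE 0.21, limma adjusted p = 0.0466), made up of 1.84 on the F arrays and 1.24 on the R arrays. The other Gbp5 probe, with the same accession, was at -0.35 and was not called. Guanylate-binding protein genes are near-identical in stretches, so their cDNA probes may share signal.

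All 5 measured interferon-inducible GTPases of 16 listed lay above 0, with a median difference of 0.91, and 1 was called. Over all genes 3306 of 6503 (50.8%) lay above 0. Gbp2, at -1.04, -1.63, -0.28 and -0.40 at 6 h and 1.79, 1.61, 1.18 and 0.85 at 24 h, did not overlap but was a dim spot and was not called (2.19, SE 0.76, limma adjusted p = 0.472). Igtp also did not overlap, at -1.03, -1.14, -0.36 and -0.27 at 6 h and 0.11, 0.06, 0.11 and 0.75 at 24 h (0.96, SE 0.22, limma adjusted p = 0.246). Gbp6 stood at 0.91 and Gbp9, over both probes, at 0.66.

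Of 13 measured further interferon-stimulated genes, 11 lay above 0 and 2 below, with a median of 0.46 and 0 called. The antiviral genes Ifit2 and Ifit3 were at 1.78 and 0.98, the ISG15 protease Usp18 at 1.56 and the transcription factor Irf1 at 0.95. Ifit2 was a dim spot, at a brightness percentile of 14.55 among the tested probes. Its arrays of 24 h ran from -0.62 to 2.83. Usp18 was at percentile 28.5. The groups overlapped for Ifit2, Ifit3 and Irf1 and did not for Usp18. Rsad2 and Xaf1 were below 0, at -0.45 and -0.47. In antigen processing and presentation 8 of 9 lay above 0, with a median of 0.34 and 0 called. The immunoproteasome subunit Psmb8 stood at 0.81, the proteasome activator Psme1 at 0.72, the class II genes H2-Eb1 and H2-Aa at 0.61 and 0.60, and H2-DMa at -0.20.

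Markers of several other cell types lay on the same side, among them those of macrophages and Kupffer cells. Of 13 listed, 3 were measured, and the defining markers Adgre1, Clec4f, Cd68 and C1qa were not among them. Mpeg1 stood at 1.58, the receptor Csf1r at 0.93 and lysozyme (Lyz2) at 0.54, none of them called. With dye effects removed, the median ratio of the 3 ran from -1.41 to -0.46 on the arrays of 6 h and from 0.07 to 0.61 on those of 24 h. Markers of other cell types also lay above 0, with none called: both measured erythrocyte markers of 7 listed (Car2 at 1.86 and Alas2 at 0.84), the fat marker Plin1 at 1.999 and the leukocyte gene Ptprc at 1.54. Ptprc, Alas2 and Plin1 were dim spots, at brightness percentiles of 3.9, 5.6 and 18.4 among the tested probes. Their groups overlapped, as did those of Car2. With dye effects removed, the erythrocyte median ran from -1.14 to 0.09 on the arrays of 6 h and from 0.28 to 1.003 on those of 24 h. The other lymphocyte markers Cd4 and Cd3e stood at 0.19 and -0.39, and both measured neutrophil markers and both endothelial markers lay below 0, with medians of -0.39 and -0.13. The part of any of these cell types in the interferon and antigen values was not tested, and in whole liver fewer cells of a type and less RNA per cell cannot be told apart.

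**Figure D3:**
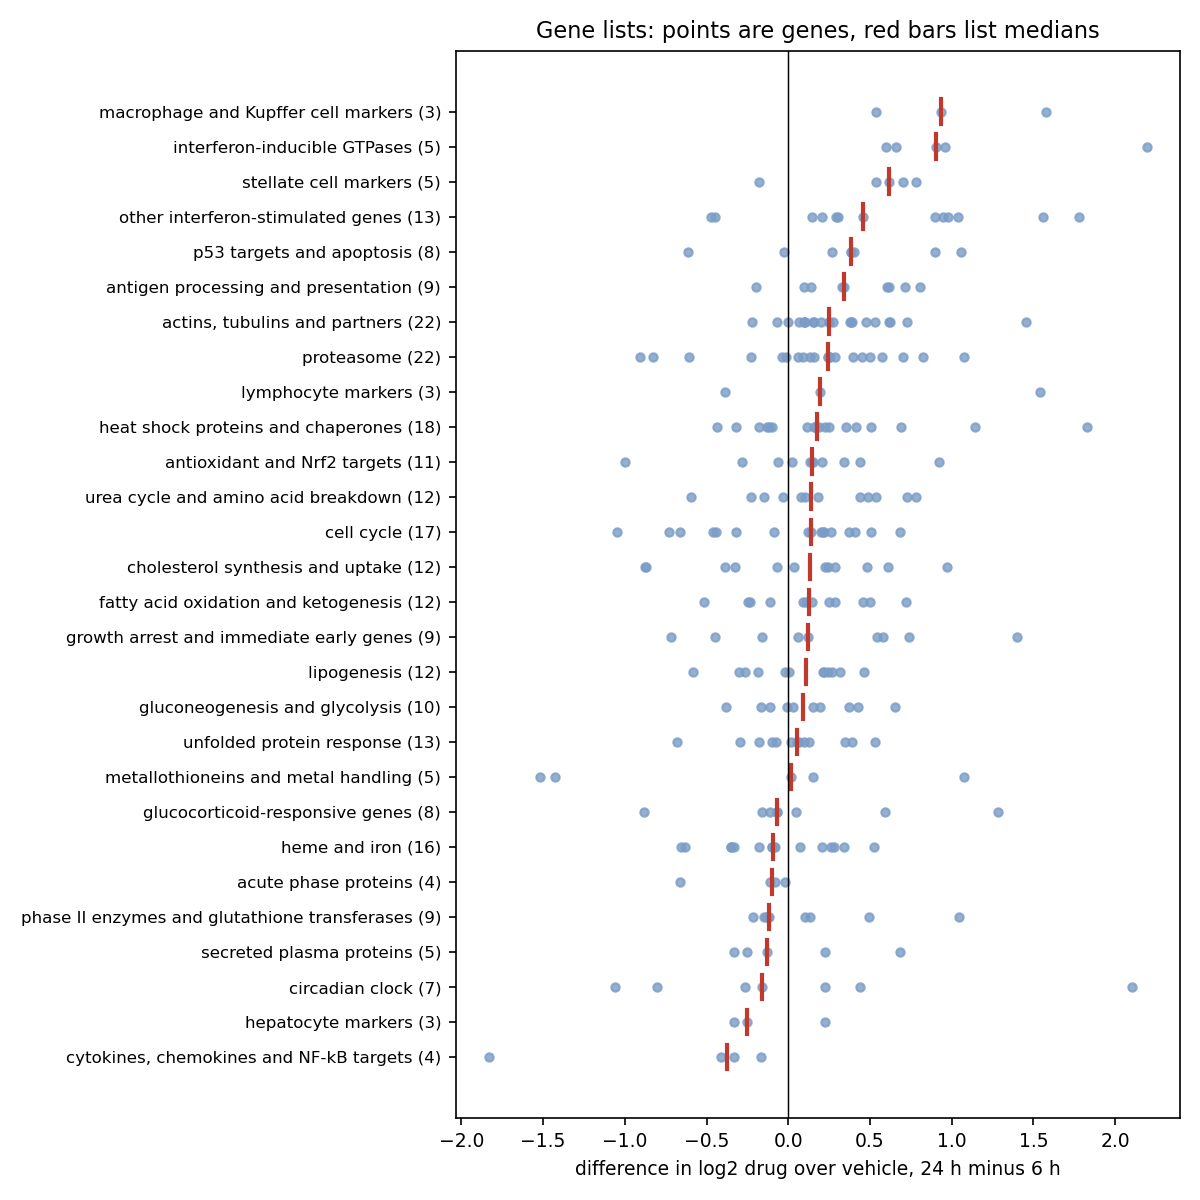
Difference in log2 drug over vehicle between 24 h and 6 h (horizontal axis) for the measured genes (points) of each gene list with 3 or more of them, with the number measured in brackets and the list median as a red bar. The 5 interferon-inducible GTPases lie above 0 with a median of 0.91, and the 4 acute phase genes and the 4 cytokine and NF-kB genes lie below 0.

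Gstm2, a mu-class glutathione transferase, was called on 2 of its 5 probes. The first was at -1.11, -1.21, -0.22 and -0.10 at 6 h and at -0.16, 0.18, 0.72 and 1.07 at 24 h. The groups overlap by 1 array, and each orientation was higher at 24 h. The difference was 1.11 (SE 0.15, limma adjusted p = 0.0466), and that of the second called probe was 1.47. The remaining probes stood at 1.27, 1.62 and -0.26. Mu-class genes are near-identical paralogs whose cDNAs may cross-hybridize, and Gstm4 and Gstm5 stood at 0.13 and -0.15. In the list of phase II enzymes and glutathione transferases 4 of 9 lay above 0, with a median of -0.12 that was above 0 in 10 of 28 alternatives. Gstm5 lay above 0 in 8 of the 28.

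Ccnd2, the cell cycle regulator cyclin D2, was at -1.44, -1.16, -0.35 and -0.46 at 6 h and at -0.26, -0.28, 1.03 and 1.498 at 24 h. The groups did not overlap, and the difference was 1.35 (SE 0.19, limma adjusted p = 0.0466). Within each time point the R arrays lay above the F arrays. Its other probes went the opposite way, at -0.58 and -0.13. The probe at -0.58 also separated the time points, with 24 h below 6 h, and was not called (limma adjusted p = 0.560). Of 17 measured cell cycle genes 10 lay above 0, with a median of 0.14, and no other was called.

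Arhgef12 was at 0.02, 0.03, -0.55 and -0.54 at 6 h and at 1.47, 1.07, 0.53 and 0.99 at 24 h. The groups did not overlap, and the difference was 1.28 (SE 0.15, limma adjusted p = 0.0368). Within each time point the F arrays lay above the R arrays. Its second probe stood at 0.52, uncalled.

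Fam8a1, a cofactor of endoplasmic reticulum protein degradation in human cells, was at -1.24, -1.40, -0.08 and -0.05 at 6 h and at -0.16, -0.26, 1.05 and 1.15 at 24 h. Both orientations moved by about the same amount, 1.11 on the F arrays and 1.17 on the R arrays, while the raw groups overlap. The difference was 1.14 (SE 0.16, limma adjusted p = 0.0466), beside 0.14 for its other probe. 9930111J21Rik2, measured by 1 probe, was at -1.90, -0.81, -0.34 and -0.38 at 6 h and at 0.37, 0.66, 1.42 and 1.93 at 24 h. These groups did not overlap, and the difference was 1.95 (SE 0.29, limma adjusted p = 0.0466).

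Of the 17 called probes, 13 had groups that did not overlap, where 4.24% of all tested probes had none (269 above and 318 below). With each probe's dye effect removed all 17 were separate, against 7.91% of tested probes. The difference had the same sign on the F and the R arrays for 17 of 17 called probes, and for 52.6% of all. Over all tested probes the F and R differences correlated at 0.04, and at 0.12 over the 9692 brighter ones. These values describe probes on shared arrays. The called probes were chosen for a large difference on these same arrays with the dye fitted, so their separation and their shared sign follow in part from that choice and support nothing.

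Some uncalled genes whose groups did not overlap are given as values only, at limma adjusted p from 0.0534 to 0.245. Above 0 the ribosomal protein gene Rps14 was at -0.84, -0.995, -1.18 and -1.04 at 6 h and 0.11, -0.09, 0.11 and -0.10 at 24 h, a difference of 1.02 (SE 0.16, limma adjusted p = 0.0534). Its other probes stood at 0.39 and 0.11. Gm1968 and the glutamate receptor gene Grid1 stood at 2.79 and 1.27 (limma adjusted p = 0.0581 for each). Nucleolin (Ncl) stood at 1.39, the huntingtin gene Htt at 0.74, the ubiquitin ligase Ube4a at 0.88 and the chromatin protein gene Smchd1 at 0.81. Below 0, Tdo2, the enzyme that opens tryptophan breakdown, was at 0.82, 0.62, 0.74 and 0.85 at 6 h and -0.04, 0.15, -0.49 and -0.11 at 24 h, a difference of -0.88 (SE 0.16, limma adjusted p = 0.121). The fibrinogen alpha chain gene Fga was at 0.69, 0.87, 0.53 and 0.80 at 6 h and -0.06, 0.07, 0.19 and 0.03 at 24 h, a difference of -0.66 (SE 0.15, limma adjusted p = 0.245). Both genes were above 0 on every array of 6 h. At 24 h Tdo2 ran from -0.49 to 0.15 and Fga from -0.06 to 0.19.

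Fga belongs to the acute phase list, in which all 4 measured of 24 listed lay below 0, with a median of -0.10 and 0 called. The other 3, Cp, Lbp and Lcn2, lay between -0.11 and -0.02, and each lay above 0 in some alternatives. In cytokines, chemokines and NF-kB targets all 4 measured of 19 also lay below 0, with a median of -0.37. The chemokine gene Cxcl1 was at 1.25, 1.99, 3.20 and 2.81 at 6 h and at 1.13, 0.35, 0.39 and 0.05 at 24 h, with no overlap and no call (-1.83, SE 0.65, limma adjusted p = 0.483). Ccl2, Nfkb2 and Birc3 stood at -0.33, -0.41 and -0.17.

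None of the actin, tubulin, proteasome and stellate cell genes was called. Of 22 measured actins, tubulins and partners 19 lay above 0, with a median of 0.25, among them beta-actin (Actb) at 0.62 over 8 probes and the tubulin Tubb4b at 0.62 over 3. Of 22 proteasome genes 16 lay above 0, with a median of 0.24. Stellate cell markers had 4 of 5 above 0 and a median of 0.62, including smooth muscle actin (Acta2) at 0.70 and desmin (Des) at 0.78.

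The ratio can differ because the drug channel, the vehicle channel or both differ between the times. Taken singly, 0% of probes were called in the vehicle channel and 0% in the drug channel by limma on the 8 arrays, with 1652 and 1480 at an unadjusted p under 0.05. Among the 17 called probes the vehicle channel differed more in 13 and the drug channel in 4, and the signs were opposite in 14. For Mt2 the log2 intensity at 24 h less that at 6 h was 1.54 (SE 0.44) in the vehicle channel and -0.50 (SE 0.58) in the drug channel. The Mt2 drug value has no settled direction: it was 0.13 without array R2 of 24 h and -1.04 without R1 of 24 h. For Mt1 the values were 1.59 (SE 0.39) and 0.16 (SE 0.39), and the drug value was -0.16 without R2 of 24 h and -0.12 without R1 of 6 h. Over the alternatives run the vehicle value stayed between 1.16 and 1.97 for Mt2 and between 1.22 and 1.89 for Mt1. Both metallothionein spots were thus brighter in vehicle liver on the arrays of 24 h, by values that did not pass the test.

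For Gbp5 the vehicle channel differed by -1.88 (SE 0.64) and the drug channel by -0.34 (SE 0.71). Without R2 of 24 h these values were -1.18 and 0.45, and the drug value was -0.90 without R1 of 24 h and 0.05 without R1 of 6 h. Gstm2 stood at -0.70 in the vehicle channel and 0.41 in the drug channel, the latter at 0.26 without R2 of 24 h. For 9930111J21Rik2, Arhgef12 and Fam8a1 the drug channel differed more, by 1.03, 0.71 and 0.66. Over all probes the vehicle and drug differences correlated at 0.52, and both hold the brightness of shared arrays, so differences between hybridizations and between the harvest times of vehicle mice cannot be told apart.

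**Figure D4:**
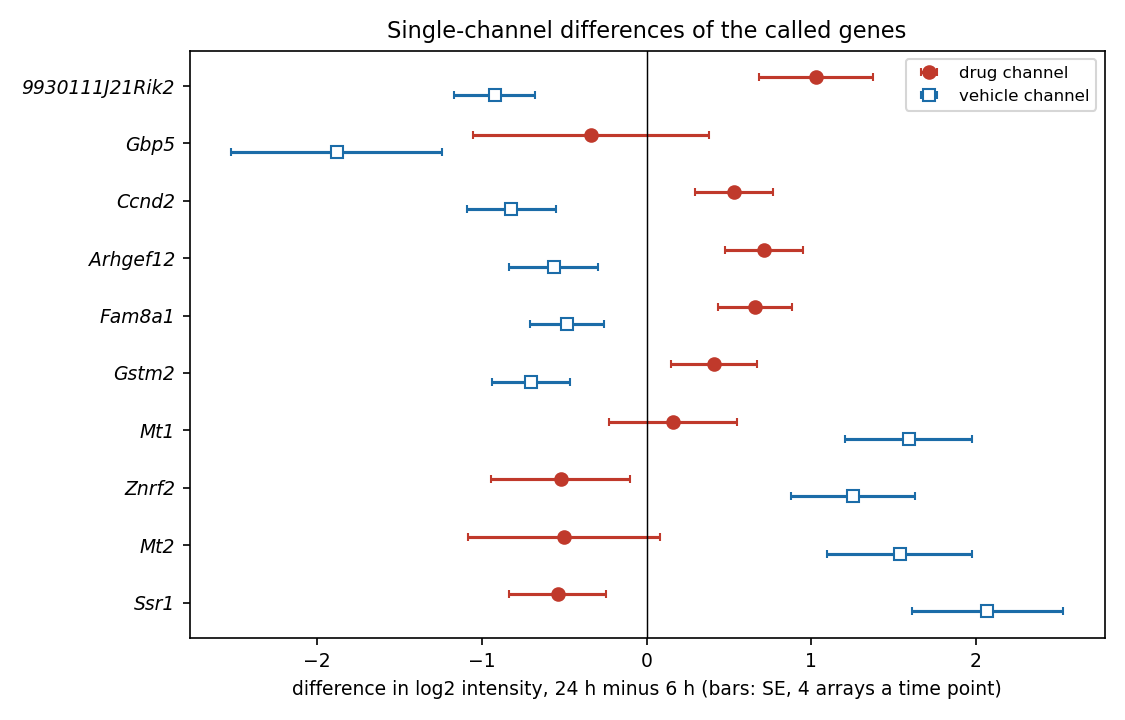
Difference in log2 intensity between 24 h and 6 h (horizontal axis) in the drug channel (filled circles) and the vehicle channel (open squares) for the 10 named called genes, with bars of 1 SE over 4 arrays a time point. For Mt1 the vehicle channel stands at 1.59 and the drug channel at 0.16, and for Mt2 they stand at 1.54 and -0.50. Both drug values change sign without array R2 of 24 h.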

How the data were processed

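Per the labels, liver RNA was labelled by first-strand synthesis and hybridized in pairs. According to the series' design text, the scanner ran ImageQuant 5.0, spots were quantified with ArrayVision 8.0, and LOWESS-normalized log ratios came from Avadis 4. The intensity columns deposited by the authors hold foreground, background and corrected intensity per dye, and a signal-to-noise score, also deposited by the authors, with no formula in the labels. The authors' deposited log2 ratios are Cy5 over Cy3 with dye-swapped arrays unturned, and correlated at 0.998 to 1.000 with the ratios computed here.

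Corrected intensities were loess-normalized within arrays and fitted with limma 3.58.1 in R 4.3.3 over all 12 arrays, with a dye effect per probe. Residual degrees of freedom were 8 for probes measured on all 12 arrays, and fewer where 12 h values were missing. Single channels were additionally scaled by Aquantile. The fit was tested on simulated data with independent noise on each array. That simulation held no RNA shared between arrays and no difference between hybridizations, so it does not test their effect.

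Names came from GEO's probe annotation after moving 48 blocks of 480 spots between row-wise and column-wise order of a 12 by 4 grid. The direction of the move was set by the spots at which it puts Mt1 and Mt2. The values of Mt1 and Mt2 are therefore no independent check of the naming. Among tested probes 9286 had 1 symbol, 151 several and 4408 none, and 6458 of 6503 symbols were found in RefSeq. A list counts a gene once, by the mean of its probes.

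The members and lists were chosen with earlier results of these data known. Named genes were called probes with 1 symbol, up to 20 in each direction by size, up to 4 list members by unadjusted p, and up to 12 uncalled genes in each direction whose groups did not overlap. Each gene named in the text was run under every alternative. Other list members are named as examples, chosen after their values were seen. Alternatives covered arrays, spots, dye term, background, normalization, brightness and a replicate block.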

Additional observations from a re-analysis of the deposited data

Results flagged for a closer look

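In groups of 4 arrays, 1 array stood far from the other 3 in 2 of 68 groups screened, with the dye effect removed, where chance flags about 5% of groups. For Ccnd2 at 24 h array R2 was at 0.83, and the others between 0.37 and 0.40. For Gm1968 at 24 h array F1 was at 1.37, and the others between 3.09 and 3.33.

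The 10 genes called for a drug effect that differs between the times were 9930111J21Rik2 (1.95), Gbp5 (1.54), Ccnd2 (1.35), Arhgef12 (1.28), Fam8a1 (1.14), Gstm2 (1.11), Ssr1 (-2.61), Mt2 (-2.04), Znrf2 (-1.77) and Mt1 (-1.43), as log2 differences of 24 h minus 6 h. For Ssr1, Znrf2, Ccnd2, Gbp5, Arhgef12, Fam8a1 and Mt2 no other probe of the gene was called.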

How the results depend on the processing

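All 17 called probes kept their direction in the 28 alternatives, but the number of calls did not hold. It was 0 on the 8 arrays alone, 0 on spots measured on at least 3 of 4 arrays, 0 with dye-swap pairs averaged, 0 on the F arrays, 0 on the R arrays, 2 with no dye term, 7 with normexp, 34 without the dimmest 30% of spots and 76 (70 higher, 6 lower) with no background subtraction. Calls ranged from 0 to 20 with 1 array left out. Without an array of 6 h they were 1 (F1), 0 (F2), 0 (R1) and 0 (R2). Without one of 24 h they were 20 (F1), 0 (F2), 2 (R1) and 3 (R2), and without one of 12 h 0 (F1), 3 (F2), 0 (R1) and 0 (R2). Without 24 h F1, 6 of the 20 were among the 17. With the array label as a replicate block 0 were called. Arrays of the same label at 6 h and 24 h correlated at -0.15 to -0.08 in their deviations, and 0 of 4 were most like their own label. The deviations had each time's mean and the fitted dye effect removed, which by itself lowers correlations between arrays of the same orientation. These values therefore cannot show whether the labels pair samples. The fits that called 0 had 978 to 1398 probes at an unadjusted p under 0.05 by limma. Mt2 stayed called in 4 of the 12 leave-one-out fits and in 9 of 16 others, with adjusted p from 0.000253 to 0.614, and Mt1 in 1 of 12 and 9 of 16. Other called genes stayed called in 0 or 1 of 12. The drug channel gave 0 to 2 calls with 1 array left out, the 2 without 24 h F1. Among the 112 uncalled list members with the smallest p, up to 4 a list, 24 reversed in at least 1 alternative, in 55 of 3109 values (23 with 1 array left out). Of the uncalled genes named here, those that reversed on the F arrays were Slc39a4 (-0.69), Gstm5 (1.56), Cp (0.25) and Alas2 (-0.47). On the R arrays they were Slc39a1 (-0.075), H2-DMa (0.086), Lyz2 (-0.11), Gstm4 (-0.065), Lbp (0.041) and Lcn2 (0.090). With normexp they were Slc39a4 (-0.0061), Slc39a14 (-0.012), Gstm5 (0.37), Lbp (0.14), Lcn2 (0.36) and Alas2 (-0.010). The Slc39a14 value is that of its probe with the smallest p. That probe stood at 0.40 in the main fit, and the mean of both probes at 0.15. With no background subtraction they were H2-DMa (0.096), Gstm5 (0.40), Lbp (0.13) and Lcn2 (0.17). Gstm5 was also at 0.36 with loess by block and 0.19 with array weights. With 1 array left out the range crossed 0 for Slc39a1 (-0.030 to 0.054), H2-DMa (-0.45 to 0.064), Gstm4 (-0.013 to 0.26), Gstm5 (-0.72 to 0.78), Cp (-0.23 to 0.048), Lbp (-0.22 to 0.081) and Lcn2 (-0.43 to 0.28). List medians moved by more than the spread between arrays in 21 fits with 1 array left out and 46 others. Over all alternatives the median ran from 0.52 to 1.17 for interferon-inducible GTPases, 0.13 to 0.64 for other interferon-stimulated genes, 0.21 to 0.55 for antigen processing, 0.37 to 1.18 for macrophage markers, 0.12 to 0.36 for actins and tubulins, 0.14 to 0.33 for the proteasome, 0.19 to 0.81 for stellate markers, -0.52 to -0.079 for cytokines, -0.25 to 0.039 for acute phase genes, -0.12 to 0.51 for phase II enzymes and -0.71 to 0.064 for metal handling. The causes were not tested. Low signal limits dim spots, and the number of arrays limits the precision.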

Other observations

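The 6 called probes without a gene symbol were all higher at 24 h, with differences from 1.04 to 2.22. 1 of them had a ratio of -0.11 at 6 h, 2.06 at 12 h and 2.11 at 24 h. Gm1968 and Smad9, both uncalled, had a similar course, at -0.02, 2.48 and 2.77 and at -0.31, 2.33 and 2.74. The other Gm1968 probe had a difference of 0.14.

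The p53 target list had 6 of 8 measured genes above 0 and a median of 0.38, with 0 called, and Fas and Ccng1 stood at 1.06 and, over both probes, 0.38. Heme and iron genes had 6 of 16 above 0 and a median of -0.09. Lipogenic genes had 7 of 12 above 0 and a median of 0.11, with Insig1 at -0.59 and Elovl6 at 0.46 over 5 probes.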
